A study of Mus musculus with 6 samples.

Results

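The heat shock proteins and their DNAJ co-chaperones were examined in liver of mice lacking the microRNA miR-137. Members were chosen by gene symbol: the HSP70 (Hspa), HSP110 (Hsph), HSP90 (Hsp90), chaperonin (Hspd, Hspe) and small heat shock protein (Hspb) families, and the J-domain families Dnaja, Dnajb and Dnajc. They came to 70 of the 18193 genes that the arrays measured, with 169 of the 45037 probe sets. Liver RNA of 3 Mir137-/- and 3 Mir137+/+ mice was hybridised to Affymetrix whole-genome mouse arrays, 1 mouse per array. Mir137-/- mice lacked the miR-137 exons in every tissue, through a germline deletion made with Cre recombinase in embryonic stem cells, and Mir137+/+ mice carried both intact copies. These stem cells were of another strain than C57BL/6, to which the chimeras had been crossed, so the background was mixed. Both genotypes came from heterozygous parents. All the mice were untreated and at postnatal day 14. The mutants are a model of loss of miR-137 in the whole body, not in hepatocytes alone, and they were growth-retarded at this age.

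Chaperones bind unfolded or newly made proteins and keep them from aggregating. HSP70 does so in cycles of ATP hydrolysis: a J-domain protein of the DNAJ families delivers the client and triggers hydrolysis, and a nucleotide exchange factor such as an HSP110 protein resets the cycle. HSP90 completes the folding of signalling proteins, the chaperonin encloses mitochondrial clients, and small heat shock proteins hold unfolded clients without ATP. In the cytosol many of these genes are driven by heat shock factor 1, which binds repeats of nGAAn, and in the endoplasmic reticulum (ER) by the unfolded protein response.

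Promoter windows of 250 bases before to 50 bases after the annotated start (RefSeq, GRCm38.p6) were matched by symbol to 57 of the 70 members. A 3-unit heat shock element, made of alternating GAA and TTC triplets with 2 free bases between neighbours and read on either strand, lay in the windows of 4 members (7.02%), against 0.662% of the 27025 genes with a window. A 2-unit element, GAANNTTC or TTCNNGAA, which every 3-unit match also contains, lay in 16 members (28.1%) and in 17% of all genes. The windows below are a selection: all 3-unit elements, and the 2-unit elements of Hsph1 and Dnaja1. The matched element is in capitals, with 4 bases on each side. Other members with a 2-unit element are not printed. Their differences between the genotypes lay on both sides of 0, from -0.44 for Dnaja4 to 0.45 for Hspb1. The Hsph1 element (chr5:149636284-149636304, minus strand) lies 15 bases after one annotated start, with a 2-unit element (chr5:149636358-149636373, minus strand) 54 bases before that start. The Hspd1 element (chr1:55088055-55088080, minus strand) lies 144 bases before its start and is also the element of the divergent Hspe1, 89 bases before the start of that gene on the other strand. The Dnajb6 element (chr5:29735848-29735868, plus strand) lies 46 or 127 bases upstream of its annotated starts, and the 2-unit Dnaja1 element (chr4:40722340-40722355, plus strand) 124 bases upstream.
Hsph1, 3 units: cagaTTCTGGAAAGTTCtcct
Hsph1, 2 units: atctTTCTCGAAggct
Hspd1 and Hspe1: ggccTTCCGGAAGGTTCTAGAAcgga
Dnajb6: ccgaGAATCTTCCGGAAcgct
Dnaja1: tctaGAAAATTCtacg

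The ER stress element, a site of the unfolded protein response made of CCAAT, 9 free bases and CCACG, lay in 3 members (5.26%) and in 0.137% of all genes, and the related element ERSE-II, made of ATTGG, 1 free base and CCACG, in 1 member (1.75%) and 0.0444% of genes. Each was searched on both strands, and no member held both. The 3 members were Hspa5 (chr2:34772021-34772047, plus strand, 65 bases upstream), Dnajc3 (chr14:118937823-118937849, plus strand, 105 bases upstream) and Hsp90b1, whose element nearest the start (chr10:86705529-86705555, minus strand, 107 bases upstream) is in the reverse orientation. The related element stood in Dnajb11 (chr16:22857848-22857866, plus strand), 7 bases after its start. These matches describe letters of the reference sequence; binding was not measured.
Hspa5: ttcaCCAATCGGAGGCCTCCACGacgg
Dnajc3: acaaCCAATCAGCGCCAACCACGaccc
Hsp90b1: agtgCGTGGTGAGGCACGATTGGtgag
Dnajb11: ggcgATTGGCCCACGcctg

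Hepatocyte markers were high on every array (Alb between 13.71 and 13.79 on the log2 scale). Other markers set single arrays apart. Against the Mir137+/+ mean, 18 skeletal muscle genes had a median of 3.01 on replicate 1 of the mutants, with the remaining arrays at -0.04 to 0.13, and 13 exocrine pancreas genes stood at 2.63 on Mir137-/- replicate 2 and 1.46 on Mir137+/+ replicate 2. The methods name male mice, but the female transcript Xist reached 10.91 on Mir137+/+ replicate 2 and 10.81 on replicate 3, where the remaining 4 arrays had 4.24 or less. With the genotypes so split, sex enters any difference except against Mir137+/+ replicate 1. Of 10 neutrophil markers 8 fell in Mir137-/- liver (array medians -1.80 to -1.20, against -0.25 to 0.16), as did 7 of 9 B-cell precursor markers (-0.95 to -0.67, against -0.10 to 0.12).

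In Mir137-/- liver 1 chaperone gene fell, Hsph1, and 1 rose, Dnajc12, while the other 68 members did not pass the test. A gene was called where limma's adjusted p was below 0.05 and the difference exceeded 1.5-fold, which is 0.585 on the log2 scale. The 2 calls are 2.86% of the members, against 5.67% of all genes (2.34% rose and 3.34% fell). With the fold threshold set aside, 7 members (10%) had an adjusted p below 0.05, against 12% of all genes (5.06% higher and 6.9% lower). They were Hsph1, Dnaja1, Dnajb1, Dnajc1 and Dnajc28 with lower values in Mir137-/- liver, and Dnajc12 and Dnajc10 with higher ones. The arrays of the genotypes did not overlap for 31 members (44.3%; 18 lower and 13 higher in Mir137-/-), against 32.3% of all genes. Differences were negative for 41 members, where 49% of all genes had a negative one. The median difference over the members was -0.03, against 0.00 over all genes.

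**Figure D1:**
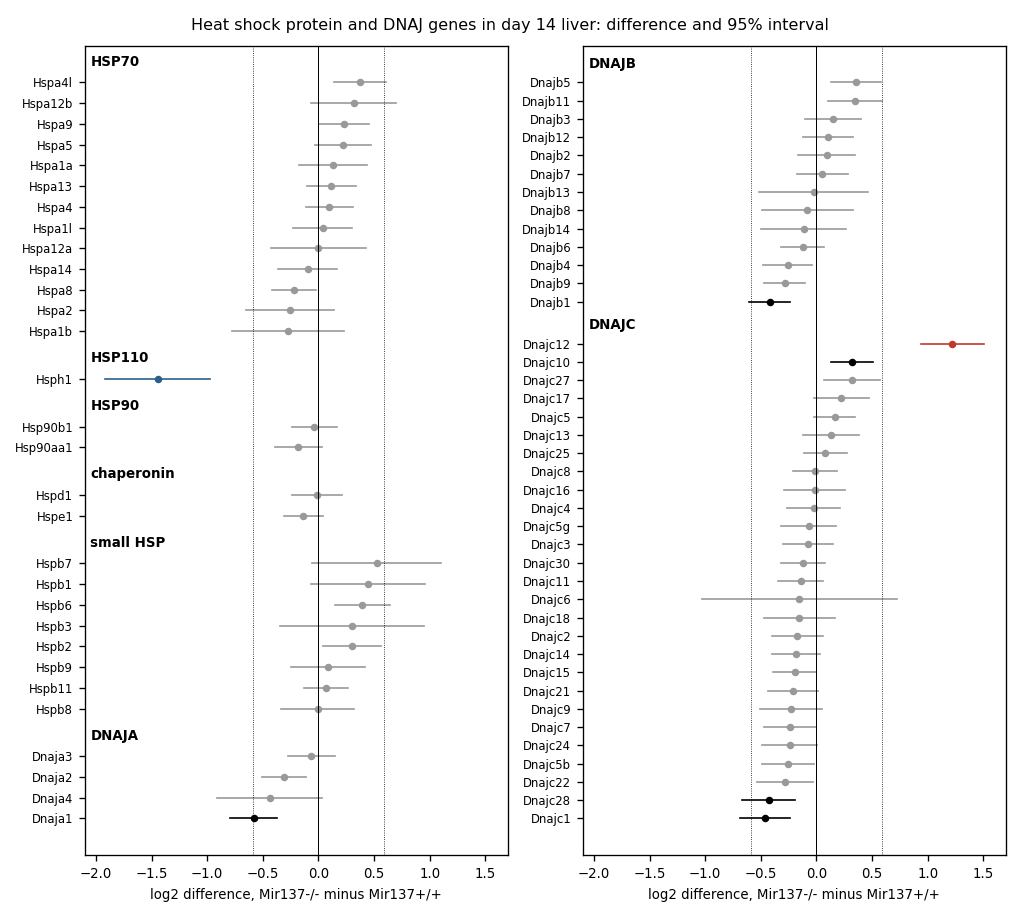
Difference between Mir137-/- and Mir137+/+ liver for the 70 members (x axis, log2 difference; point, estimate; line, 95% interval from limma; n = 3 arrays per genotype), grouped by family, with the 1.5-fold threshold dotted. Hsph1 (blue) fell and Dnajc12 (red) rose; black points have an adjusted p below 0.05 but less than a 1.5-fold difference, and the others (grey) lie within 0.6 of 0.

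Hsph1 encodes HSP105, the HSP110-family nucleotide exchange factor of cytosolic HSP70. Its log2 expression was 6.39, 6.66 and 5.81 on the Mir137-/- arrays and 7.71, 7.88 and 7.61 on the Mir137+/+ arrays. The highest mutant value lay about 1 log2 unit under the lowest wild-type value, and the mutants spread more widely (SD 0.43) than the wild types (SD 0.14). Hsph1 fell by 1.45 (SE 0.20, n = 3 per genotype, adjusted p = 0.00422), that is 2.73-fold lower. Its second, dimmer probe set fell by 1.44, so both probe sets gave the call. The call did not hold with the methods' t-test (adjusted p = 0.0671) with sex as a term (difference -1.42, adjusted p = 0.0715) or without the arrays with Xist (-1.42, adjusted p = 0.137); over all alternatives the difference stayed between -1.63 and -1.21 and the adjusted p between 0.0018 and 0.137. In bulk tissue, fewer cells of a type and less RNA per cell cannot be told apart, and the part of the marker shifts above in this difference was not tested.

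The HSP70 family itself had no called gene among 13, with a median difference of 0.10 and a range of -0.28 to 0.37. Hspa8, the constitutive HSC70, had values of 11.53, 11.52 and 11.54 in Mir137-/- and 11.86, 11.68 and 11.72 in Mir137+/+ liver. The mutants lay below all wild types, but the difference of -0.22 did not pass (adjusted p = 0.140). All 4 Hspa8 probe sets had a negative difference, 3 of them with groups that did not overlap. The dimmest of the 4 fell by 1.01 (limma, adjusted p over all probe sets 0.0442), a call lost in 9 of 16 alternatives. Hspa1b, the inducible HSP70, had values of 7.06, 7.62 and 6.68 against 7.57, 7.33 and 7.29, a difference of -0.28 with overlapping groups (adjusted p = 0.476). The probe set of its near-identical copy Hspa1a was dim (3.28 to 3.81) with a difference of 0.13. The signals of these copies cannot be separated with certainty by hybridisation.

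Probe sets of the 2 HSP110-like genes of the family, which are also exchange factors, stood in opposite directions. Hspa4 (APG-2) was read by its brightest probe set at 9.41, 9.35 and 9.55 against 9.36, 9.39 and 9.27, a difference of 0.10. 2 other probe sets nevertheless fell by 0.99 each (adjusted p over all probe sets 0.00156 and 0.00266), and a dim probe set gave -0.02. On the first of the 2 the values were 6.74, 6.69 and 6.45 against 7.57, 7.70 and 7.59, with no overlap. A mean of all probe sets gave Hspa4 a difference of -0.48, the reverse of the sign of the brightest, so its direction depends on the probe set. Hspa4l (APG-1) was higher in Mir137-/- liver on each of its 5 probe sets without overlap. The brightest read 6.69, 6.67 and 6.66 against 6.38, 6.11 and 6.41 (difference 0.37, adjusted p = 0.0533), and 2 others rose by 0.74 and 0.64.

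**Figure D2:**
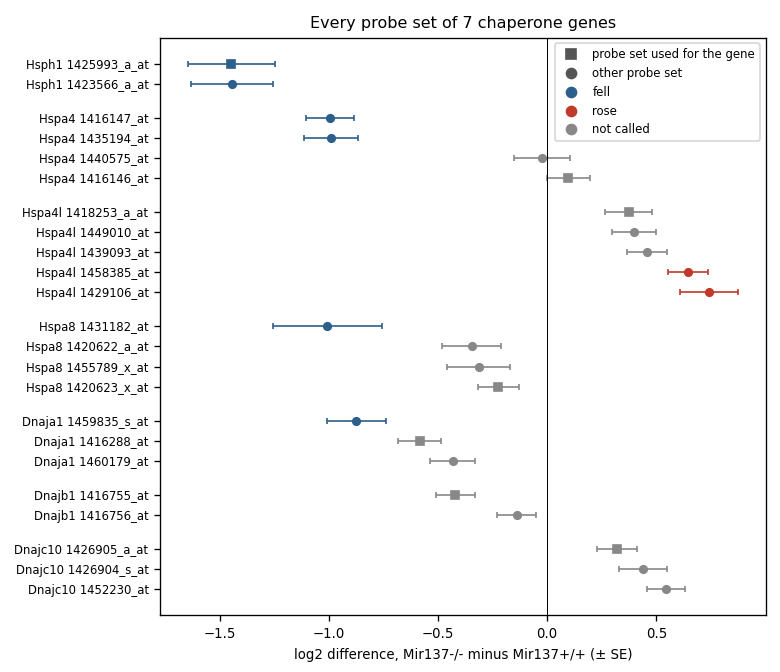
Every probe set of 7 members (x axis, log2 difference between Mir137-/- and Mir137+/+ liver; bars, SE; squares, the probe set used for the gene; n = 3 arrays per genotype). Both Hsph1 probe sets lie near -1.4, those of Hspa4 split between -0.99 and values near 0, and all 5 of Hspa4l lie above 0.

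Over all 169 probe sets of the members, 4 rose and 7 fell (6.51%), against 4.52% of all probe sets. Besides those named, they were 1 each of Dnaja1 and Dnaja4, which fell, and 1 of Hspa9, which rose. The calls of the Dnaja4 and Hspa9 probe sets were each lost in 11 of 16 alternatives, and that of Dnaja1 in 5. Whether the probe sets of a gene read different transcript ends or isoforms was not tested.

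Among the J-domain proteins, all 4 DNAJA genes had a negative difference (median -0.37). The mitochondrial one, Dnaja3, lay near 0 with overlapping groups (-0.06, adjusted p = 0.719). Dnaja1, a partner of HSC70, had values of 10.18, 9.96 and 10.00 in Mir137-/- and 10.64, 10.64 and 10.61 in Mir137+/+ liver. The 3 wild types were nearly equal and all lay above the mutants. The difference of -0.58 (SE 0.09, adjusted p = 0.00644) is 1.498-fold, just under the threshold. Its other probe sets also lay lower without overlap, one of them called at -0.87, and the mean of the probe sets gave a called difference of -0.63. Dnaja1 was also called without Mir137-/- replicate 1 (-0.65), without Mir137+/+ replicate 3 (-0.59) and after median centring (-0.60). Its adjusted p was above 0.05 with sex as a term (0.0881), without the arrays with Xist (0.188) and without those with pancreas transcripts (0.0758), and over all alternatives it ranged from 0.000192 to 1, the latter against the 1.5-fold threshold itself. Dnaja2, a close relative, differed by -0.31 (adjusted p = 0.0522) with no overlap on the brightest of its 4 probe sets, while 1 dimmer probe set was higher in the mutants. Dnaja4 differed by -0.44 with overlapping groups (adjusted p = 0.221).

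Dnajb1, the classical HSP40 that activates HSP70 in stress, read 7.85, 7.87 and 7.83 in Mir137-/- and 8.31, 8.30 and 8.20 in Mir137+/+ liver. The groups lay apart on both its probe sets, and the difference of -0.42 (SE 0.08, adjusted p = 0.0154) was below 1.5-fold. Dnajb4, a related inducible J-domain protein, was also lower without overlap on its brightest probe set (-0.26, adjusted p = 0.131). The same held for Dnajb6, a suppressor of aggregation (-0.12, adjusted p = 0.400). The groups overlapped on 2 of 3 Dnajb4 probe sets and on 3 of 4 Dnajb6 probe sets. Dnajb5 pointed the other way on its brightest probe set, at 6.36, 6.26 and 6.21 against 5.80, 5.91 and 6.05 (difference 0.36, adjusted p = 0.0524). Its 2 other probe sets differed by -0.09 and -0.03 with overlapping groups. Over the 13 DNAJB genes none was called and the median difference was -0.03.

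**Figure D3:**
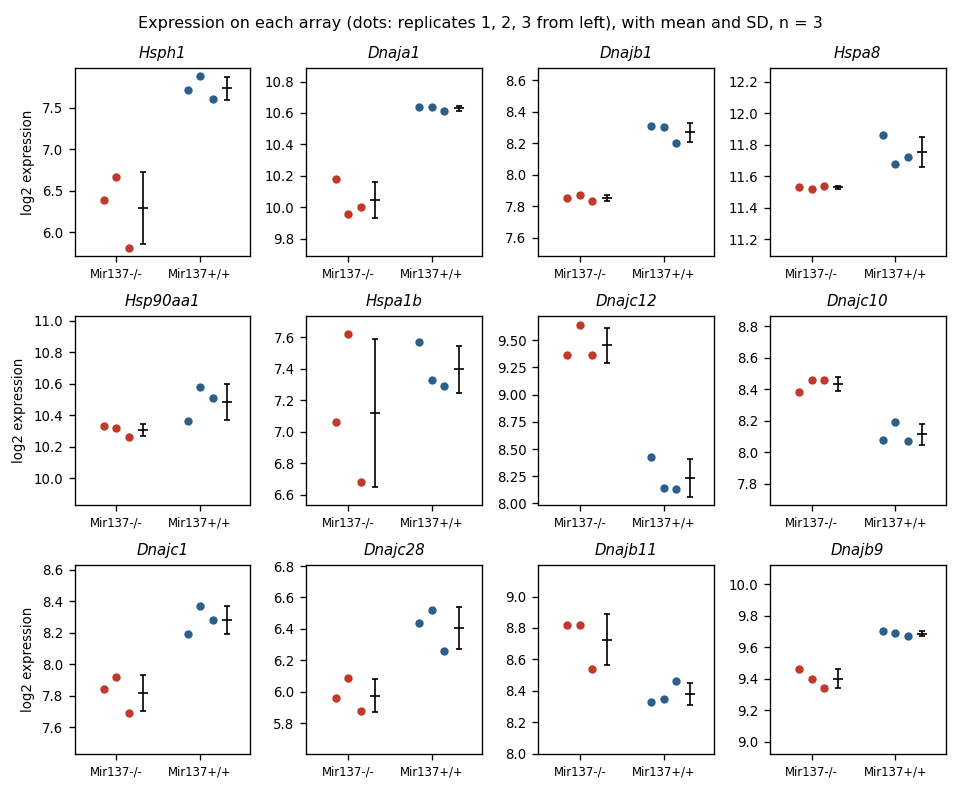
Log2 expression (y axis) of 12 members on each array, replicates 1 to 3 from left to right within each genotype, with the mean and SD beside them (n = 3). In 11 of the panels the genotypes do not overlap, and in that of Hspa1b they do. The panels are a selection: over all 70 members the groups did not overlap for 44.3%, against 32.3% of all genes.

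Hsp90aa1, the inducible cytosolic HSP90, read 10.33, 10.32 and 10.26 in Mir137-/- and 10.36, 10.58 and 10.51 in Mir137+/+ liver. The mutants were lower on every array by a narrow margin, and the difference of -0.18 (95% interval -0.39 to 0.03) had an adjusted p of 0.253. Hsp90ab1 was not analysed here, because it had no probe set assigned to it alone.

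The genes that heat shock factor 1 is known to induce were thus mostly on one side without passing the test. Of 15 measured, Hsph1 alone was called; 10 differences were negative and 5 positive, with a median of -0.14. The groups did not overlap for 9 (60%), 7 of them lower and 2 higher in Mir137-/- liver, against 17.4% and 14.9% of all genes. The list was drawn up with earlier results of these arrays known, so these counts describe it and are no test of it.

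The member that rose, Dnajc12, is a J-domain protein of another kind. It binds the aromatic amino acid hydroxylases, among them the phenylalanine hydroxylase of liver. Its values were 9.36, 9.64 and 9.36 in Mir137-/- and 8.43, 8.14 and 8.13 in Mir137+/+ liver. Every mutant array lay more than 0.9 above every wild-type array, and the rise was 1.22 (SE 0.12, adjusted p = 0.00128), or 2.33-fold. A single probe set measured it. With sex as a term the rise was 1.02 and still called (adjusted p = 0.0303), and against Mir137+/+ replicate 1 alone it was 1.02 with an adjusted p of 0.0843; over all alternatives it stayed between 1.02 and 1.32, with adjusted p from 1.57e-05 to 0.0843.

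The DNAJC family as a whole leaned the other way, with 20 of 27 differences negative and a median of -0.14. Dnajc28 read 5.96, 6.09 and 5.88 against 6.44, 6.52 and 6.26, a difference of -0.43 (SE 0.10, adjusted p = 0.0346) with no overlap on this probe set and overlap on its second. Dnajc7, which carries clients between HSP70 and HSP90, differed by -0.24 (adjusted p = 0.186), Dnajc22 by -0.28 (adjusted p = 0.145) and Dnajc21 by -0.21 (adjusted p = 0.221). In each of these 3 the groups were apart by little and the call was missed. Dnajc5, the cysteine string protein of secretory vesicles, and Dnajc27 were higher without overlap, by 0.16 (adjusted p = 0.246) and 0.32 (adjusted p = 0.106). Each also had 1 dimmer probe set with a negative difference and overlapping groups, at -0.14 and -0.13. The least certain estimate was that of Dnajc6, the auxilin that uncoats clathrin vesicles, with a difference of -0.15 and an interval from -1.03 to 0.72.

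In the ER, none of 13 members was called and their median difference was -0.02, although single genes lay apart in both directions. Hspa5 (BiP), the HSP70 of the ER, read 11.49, 11.31 and 11.11 in Mir137-/- and 11.09, 11.08 and 11.07 in Mir137+/+ liver. The mutants were above the tight wild types but spread widely, and the difference of 0.22 (95% interval -0.03 to 0.48) did not pass (adjusted p = 0.241). Dnajb11 (ERdj3), which hands clients to BiP, read 8.82, 8.82 and 8.54 against 8.33, 8.35 and 8.46 (difference 0.35, adjusted p = 0.0725). Dnajc10 (ERdj5), a disulfide reductase, read 8.38, 8.46 and 8.46 against 8.08, 8.19 and 8.07, a difference of 0.32 (SE 0.08, adjusted p = 0.0441). All 3 Dnajc10 probe sets were higher in Mir137-/- liver without overlap, by 0.32, 0.44 and 0.54.

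Other ER members lay lower or near 0. Dnajb9 (ERdj4), which restrains the stress sensor IRE1, read 9.46, 9.40 and 9.34 against 9.70, 9.69 and 9.67 (difference -0.29, adjusted p = 0.0566). Dnajc1 (ERdj1), a J-domain protein of the ER membrane, read 7.84, 7.92 and 7.69 against 8.19, 8.37 and 8.28 (difference -0.46, SE 0.10, adjusted p = 0.0217). The groups of both genes did not overlap on these probe sets. Of the 6 Dnajc1 probe sets, however, only 2 were lower without overlap, 3 overlapped and 1 very dim one was higher in the mutants. Over the alternatives the Dnajc1 difference ranged from -0.515 to -0.18. Hsp90b1 (GRP94) and Dnajc3 (p58IPK), which share the ER stress element with Hspa5, differed by -0.04 (95% interval -0.24 to 0.17) and -0.08 (-0.30 to 0.15). The remaining 6 members, Hspa13, Dnajb12, Dnajb14, Dnajc16, Dnajc18 and Dnajc25, had overlapping groups.

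None of the 9 measured mitochondrial members was called, and the one with an adjusted p below 0.05 was Dnajc28 (-0.43), given above. Hspd1 (HSP60) and Hspe1 (HSP10), the chaperonin pair that shares the divergent promoter shown above, differed by -0.01 (95% interval -0.24 to 0.21) and -0.14 (-0.31 to 0.04). Hspe1 read 11.19, 11.22 and 11.20 against 11.32, 11.34 and 11.36, a gap with no overlap that did not pass (adjusted p = 0.304). Hspa9 (mortalin), the HSP70 of the matrix, read 11.36, 11.42 and 11.17 against 11.16, 11.01 and 11.09, a difference of 0.23 (adjusted p = 0.180). It was the 1 positive value among 9 mitochondrial members; all 5 of its probe sets had a positive difference and 1 dimmer one rose by 0.66. Dnajc15, a J-domain protein of the import motor, and Dnajc11, of the inner membrane organising complex, were lower without overlap by -0.20 (adjusted p = 0.180) and -0.14 (adjusted p = 0.355), whereas Dnaja3, Dnajc4 and Dnajc30 overlapped. Dnajc19, a further import factor, shares its probe sets with a pseudogene and was not analysed here.

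The small heat shock protein genes with an Hspb symbol had the highest median of any family, 0.30, with 7 of 8 differences positive and none called. Small heat shock protein genes under other symbols were not counted. Of these, Cryab, a gene of the skeletal muscle list, read 6.64, 5.13 and 5.15 against 5.54, 5.96 and 5.89. Its difference was -0.16 with overlapping groups (adjusted p = 0.840). Hspb6 (HSP20) read 6.53, 6.22 and 6.36 in Mir137-/- and 6.09, 5.92 and 5.92 in Mir137+/+ liver, a difference of 0.39 with no overlap (adjusted p = 0.0527). Hspb7 read 5.12, 4.13 and 4.14 against 3.95, 4.05 and 3.82 (difference 0.52, adjusted p = 0.232). Hspb3 read 4.80, 3.65 and 3.84 against 3.76, 3.59 and 4.03 (difference 0.30, adjusted p = 0.550). Mir137-/- replicate 1, the array with muscle transcripts, carried the highest value of both, and these genes are best known from muscle. It was also the highest array for Hspb1 (6.49), Hspb6 (6.53), Hspb9 (2.89) and Hspb11 (7.12). The family median thus includes this array, and a median without it was not computed. Without that array the differences were 0.20 for Hspb7, -0.05 for Hspb3, 0.31 for Hspb6, 0.27 for Hspb2 and 0.24 for Hspb1 (HSP27), against 0.30 for Hspb2 and 0.45 for Hspb1 with it; the part of muscle transcripts in these values was not tested further. Hspb8, the partner of Bag3 in selective autophagy, differed by -0.01 (95% interval -0.33 to 0.32).

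**Figure D4:**
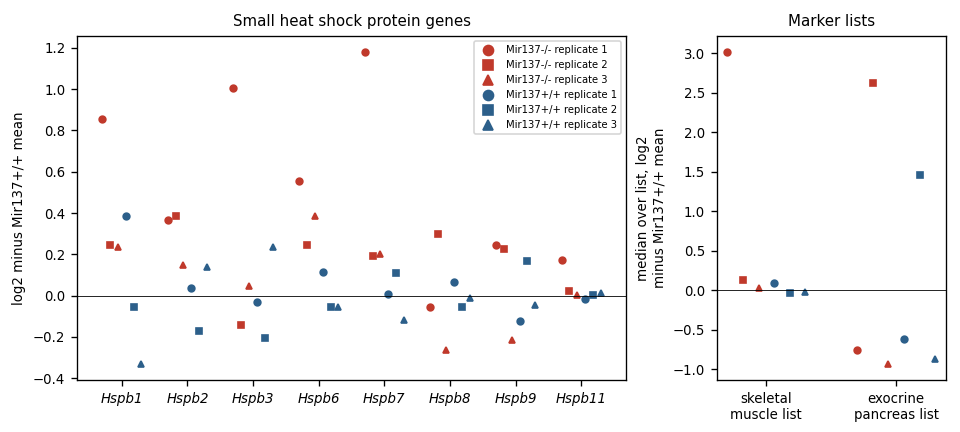
Left, log2 expression of the 8 small heat shock protein genes on each array minus the Mir137+/+ mean of the gene (y axis); right, the median of the skeletal muscle and exocrine pancreas marker lists on the same scale. Mir137-/- replicate 1 (filled circle of the mutants) is highest for Hspb1, Hspb3, Hspb6, Hspb7, Hspb9 and Hspb11 and stands at 3.01 in the muscle list.

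Partners of the chaperones were taken as 6 further lists, of which some share genes (Hyou1, Sil1, Grpel1 and Grpel2). For the counts below, the shares over all genes were 2.34% that rose and 3.34% that fell, with 49% of differences negative. Of 15 exchange factors and adaptors of HSP70, 2 rose and none fell, and the median difference was 0.16. Sgtb, an adaptor that binds HSP70, had a mean of 5.96 ± 0.07 (SD, n = 3) in Mir137-/- and 5.26 ± 0.07 in Mir137+/+ liver, a rise of 0.69 without overlap (SE 0.09, adjusted p = 0.00254). Bag4, a BAG-domain exchange factor, rose by 0.66 (SE 0.11, adjusted p = 0.00762). Bag1 and the mitochondrial exchange factor Grpel2 were higher without overlap by 0.54 (adjusted p = 0.0109) and 0.49 (adjusted p = 0.0173), under the fold threshold, which Bag1 passed without Mir137+/+ replicate 1 (0.60). The Bag4 call was lost in 7 of the alternatives, among them the sex term and the set without Mir137-/- replicate 2 (0.57).

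Of 15 measured HSP90 co-chaperones, 2 fell and none rose, with 12 differences negative and a median of -0.17. Chordc1, a zinc-binding HSP90 partner, read 7.71, 7.64 and 7.55 against 8.48, 8.54 and 8.46. The groups were tight and far apart, and the fall was 0.86 (SE 0.08, adjusted p = 0.00123), a change of 1.82-fold; with sex as a term it was still called (difference -0.85, adjusted p = 0.0316, range over the alternatives 2.34e-05 to 0.352). Fkbp5, a prolyl isomerase of steroid receptor complexes, fell by 0.60 (SE 0.11, adjusted p = 0.0122), but this call was lost in 9 of the alternatives, among them the sets without Mir137-/- replicate 2 (-0.54) and without Mir137+/+ replicate 1 (-0.52). Ahsa2, an activator of the HSP90 ATPase, differed by -0.53 without overlap (adjusted p = 0.00534), under the threshold.

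Of 24 further ER folding and unfolded protein response genes, 1 rose and 2 fell. Ern1 (IRE1), the stress sensor, read 7.72, 8.10 and 7.85 against 8.97, 9.02 and 8.97 and fell by 1.10 (SE 0.11, adjusted p = 0.00128), though the mean of all its probe sets gave -0.33 and no call. Edem1, a lectin of ER-associated degradation, fell by 0.64 (SE 0.09, adjusted p = 0.00377), and Trib3, a pseudokinase induced in stress, rose by 0.86 (SE 0.14, adjusted p = 0.00861). Sel1l and Derl1, parts of the retrotranslocation machinery, were higher by 0.33 (adjusted p = 0.0441) and 0.39 (adjusted p = 0.0391). The calls of Trib3 and Edem1 were lost with sex as a term (adjusted p = 0.0867 and 0.0551; over the alternatives 0.000747 to 1 and 0.000116 to 1). The members of the list did not share a direction, but more lay higher than lower. The median difference was 0.15, with 15 positive and 9 negative. The groups did not overlap for 54.2%, 10 of them higher and 3 lower in Mir137-/- liver, against 32.3% of all genes (14.9% higher and 17.4% lower).

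No gene was called among 12 mitochondrial folding and protease genes (median 0.03) or 14 genes of the cytosolic chaperonin CCT and prefoldin (median 0.02). None was called among 5 genes of the heat shock factor list (median 0.13). That list held the factors Hsf2, Hsf4 and Hsf5, and Hsbp1 and Hsf2bp, which are named for binding such factors. In that order, 2, 4 and 0 genes had an unadjusted p below 0.05 by limma, against 26.8% of all genes. The methods' t-test called no gene of these lists either. Of the mitochondrial list, Grpel2, given above with the exchange factors, was the gene with an adjusted p below 0.05. The CCT subunit Tcp1 read 10.05, 10.01 and 9.97 against 9.73, 9.71 and 9.75, a difference of 0.28 (adjusted p = 0.0564). Hsf2, a second heat shock factor, differed by 0.21 with overlapping groups (adjusted p = 0.481), and the mean of its probe sets gave -0.18. Hsf1 itself was not analysed here, since no probe set was assigned to it alone.

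**Figure D5:**
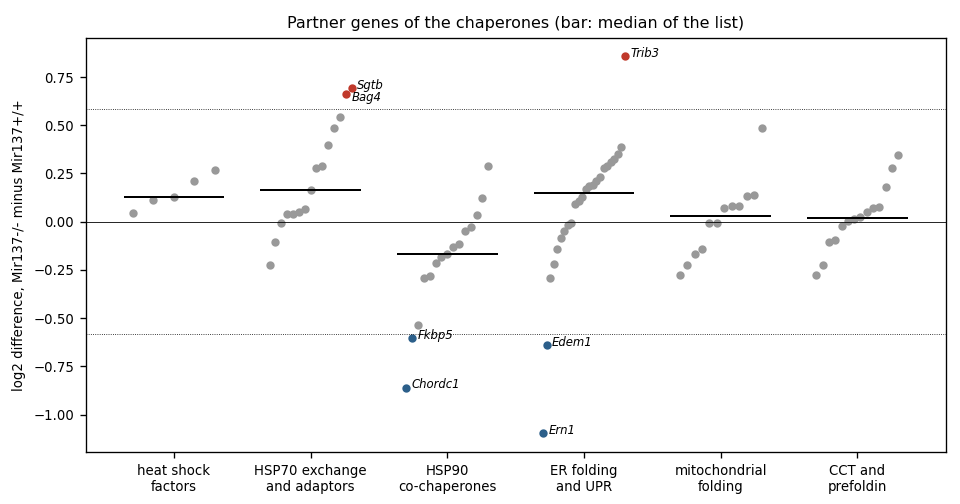
Log2 difference between Mir137-/- and Mir137+/+ liver (y axis) for each measured gene of 6 partner lists, sorted within a list, with the list median as a bar and the 1.5-fold threshold dotted. Called genes are named: Sgtb, Bag4 and Trib3 rose, and Chordc1, Fkbp5, Ern1 and Edem1 fell.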

How the data were processed

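Liver RNA of 3 Mir137-/- and 3 Mir137+/+ mice was hybridised to 1 array each. The deposited table holds log2 values that the authors made from the scanner files; the tool in their notes is GCRMA, with no version given, while their methods name a robust multi-array average, so the background step is not settled. Labels and methods also differ in the RNA input. The values were used as deposited. GCRMA corrects for probe base content, and dim probe sets can be compressed: 10 members lie among the dimmest 40% of probe sets. The number of arrays limits the precision, and arrays carry no read depth.

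Of 45101 probe sets, 64 controls were left out; of the rest, 34945 had 1 gene symbol in the platform annotation, 932 several and 9160 none. Each of 18193 genes was read from its brightest probe set (by the mean of all 6 arrays), and 3 probe sets shared by Dnajc19 and a pseudogene were left out. All 70 members matched the reference gene table. limma 3.58.1 in R 4.3.3 fitted the genotype means (lmFit, eBayes), tested on simulated data first, and p-values were adjusted by Benjamini-Hochberg over all genes, or over all 45037 probe sets for single probe sets. Calls needed an adjusted p below 0.05 and over 1.5-fold, as in the methods, which used a t-test. An exact permutation of 3 against 3 arrays cannot go below p = 0.1. Replicates are labelled as separate mice. Replicate numbers were not treated as pairs in the main fit. The deviations of same-numbered arrays correlated at 0.10, 0.24 and 0.03, and those of differently numbered arrays at -0.16 to 0.06. With 3 arrays per genotype these values cannot decide whether same-numbered arrays were handled together.

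Members and lists were chosen with earlier results of these data known. The text names called members, members with an adjusted p below 0.05, the smallest p in each family and direction, the measured members of the heat-inducible, ER and mitochondrial lists, members with differing probe sets, Hspa1a and Hspa1b, and from each partner list the called genes and up to 2 more. Other members, mostly with groups that did not overlap, Hspb3 and Hspb2 were named after their values were seen. Alternatives were another test, threshold, variance prior, scaling, filter, probe set choice, replicate block, sex term, array weights, and arrays left out. A comparison of protein sequences was planned and not run. No promoter window was matched for Dnajc12, Hspa8, Hspa9 or Hsp90aa1, among others.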

Additional observations from a re-analysis of the deposited data

How the results depend on the processing

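The arrays were 3 per genotype, sex was split between the genotypes, and dim probe sets sit near background, so small differences could not be settled; the cause of the changes below was not tested. The replicate number as a block left every count of members and partners as it was (1 rose, 1 fell) and gave 3 rises and 5 falls among member probe sets. Leaving out 1 array at a time gave 1 to 2 falls among the members and in the heat-inducible list, 0 to 1 in DNAJA, 1 to 3 rises among HSP70 exchange factors, 1 to 2 falls among HSP90 co-chaperones, and 2 to 4 rises and 5 to 7 falls among member probe sets; the second member fall was Dnaja1. Without a fold threshold, 2 members rose and 5 fell (DNAJA and DNAJB 1 fall each, DNAJC 2 rises and 2 falls, heat-inducible 3 falls, ER members 1 rise and 1 fall, mitochondrial members 1 fall), 4 HSP70 exchange factors, 3 ER folding genes and 1 mitochondrial folding gene rose, and 7 member probe sets rose and 12 fell. Median centring and the mean of all probe sets gave 2 falls among the members and the heat-inducible list and 1 in DNAJA; the latter also left 1 rise among HSP70 exchange factors, 1 fall among HSP90 co-chaperones and 0 falls among ER folding genes. Quantile normalization and array weights each left 1 HSP90 co-chaperone. The methods' t-test gave 0 falls among the members, HSP110 and the heat-inducible list, 1 rise among HSP70 exchange factors, 1 fall among HSP90 co-chaperones, 0 rises among ER folding genes, and 2 rises and 1 fall among member probe sets. With sex as a term there were 0 falls among the members, HSP110 and the heat-inducible list, 1 rise among HSP70 exchange factors, 0 rises and 1 fall among ER folding genes, and 1 rise and 1 fall among member probe sets. Testing against the 1.5-fold threshold itself, or leaving out both arrays with Xist (1 Mir137+/+ array remained, its spread taken as that of the mutants), gave 0 calls in every list. Without the arrays with pancreas transcripts, 1 HSP70 exchange factor rose, 1 HSP90 co-chaperone fell, 0 ER folding genes rose, and 1 member probe set rose and 4 fell. Signs turned for 12 genes. The mean of all probe sets gave -0.48 for Hspa4, -0.18 for Hsf2, -0.035 for Dnajb12, 0.025 for Dnajc16, 0.075 for Hsp90b1 and 0.18 for Hspb8; quantile normalization gave 0.0117 for Dnajc16 and 0.0278 for Hspb8; the sex term and leaving out the arrays with Xist each gave 0.0067 for Dnaja3, 0.0567 for Dnajb14, 0.13 for Dnajc16 and 0.0267 for Dnajc18; leaving out the arrays with pancreas transcripts gave 0.055 for Dnajb14 and 0.035 for Hsp90b1. Leaving out 1 array gave -0.21 to 0.0617 for Dnajb14, -0.09 to 0.0833 for Dnajc16, -0.12 to 0.05 for Dnajc4, -0.0767 to 0.0233 for Hsp90b1, -0.0483 to 0.53 for Hspb3, -0.16 to 0.12 for Hspb8 and -0.10 to 0.045 for Hspd1.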
